A study of Mus musculus with 4 samples.

Results

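The nuclear-encoded subunits of the mitochondrial respiratory chain were read in intraepithelial lymphocytes of the gamma delta lineage, which are T cells of the gut lining. Members were the probe sets whose single platform symbol starts with Nduf, Uqcr, Cox4 to Cox8 or Atp5, or is Sdha, Sdhb, Sdhc, Sdhd, Cyc1 or Cycs. This rule took 184 probe sets of 92 genes, out of 34958 probe sets with a single symbol and 18194 genes. By complex these were 34 genes of complex I, 4 of complex II, 9 of complex III, 1 for cytochrome c, 19 of complex IV, 17 of ATP synthase and 8 Ndufaf genes. The last are complex I assembly factors that the prefix brings in. Ndufa4 and Ndufa4l2, named for complex I, were placed with complex IV.

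All mice were C57b/6 and conventionally raised, and the cells were sorted from their colons. DSS samples, of which there were 2, came from mice given dextran sulfate sodium, an agent toxic to the lining of the colon, at 2% for 5 days, followed by a return to plain water lasting 3 days. The other 2 samples came from untreated mice. Each sample was read on 1 array of an Affymetrix-style 3' design, from total RNA that was isolated and amplified with kits for very small inputs. The labels give neither age nor sex, and they do not state whether the replicates were different animals or pools. The p-values therefore rest on a spread between samples that may be technical.

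The respiratory chain sits in the inner mitochondrial membrane. Complexes I and II pass electrons from NADH and succinate to coenzyme Q, complex III passes them on to cytochrome c, and complex IV passes them to oxygen. Proton pumping by complexes I, III and IV drives ATP synthase, which makes most of the ATP of a resting lymphocyte, while activated lymphocytes also lean on glycolysis. Most subunits are encoded in the nucleus, and many of their promoters bind the factors NRF1, GABP (an ETS factor) and YY1.

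Promoter sequence is shown for 4 members with higher signals on both DSS arrays, without overlap with the untreated ones: Cox8a of complex IV, and Atp5b, Atp5c1 and Atp5j of ATP synthase. Each stretch covers 150 bases before the annotated start and 10 bases from it, read 5′ to 3′ on the gene's strand, from RefSeq promoters of build GRCm38.p6. The positions are chr19:7217607-7217766 on the minus strand for Cox8a, chr10:128083157-128083316 on the plus strand for Atp5b, chr2:10080423-10080582 on the minus strand for Atp5c1, and chr16:84834967-84835126 on the minus strand for Atp5j. Capitals mark a motif match.
Cox8a: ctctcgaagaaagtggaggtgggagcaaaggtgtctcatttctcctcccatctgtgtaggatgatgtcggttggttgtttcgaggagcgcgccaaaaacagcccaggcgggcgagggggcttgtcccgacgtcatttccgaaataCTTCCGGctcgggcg
Atp5b: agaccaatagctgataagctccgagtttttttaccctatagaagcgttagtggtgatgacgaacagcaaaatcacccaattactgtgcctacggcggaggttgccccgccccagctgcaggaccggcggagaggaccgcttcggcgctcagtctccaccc
Atp5c1: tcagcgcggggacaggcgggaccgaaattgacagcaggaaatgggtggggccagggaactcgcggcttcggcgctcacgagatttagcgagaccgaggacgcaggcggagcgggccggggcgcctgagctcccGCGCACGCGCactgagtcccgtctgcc
Atp5j: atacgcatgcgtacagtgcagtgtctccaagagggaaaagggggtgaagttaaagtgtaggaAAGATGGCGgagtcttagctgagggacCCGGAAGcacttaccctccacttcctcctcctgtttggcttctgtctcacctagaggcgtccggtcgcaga
The motifs searched, on both strands, were GCGCA, any base and GCGC for NRF1, CCGGAAG for ETS factors such as GABP, and AAGATGGCG for YY1. The Cox8a stretch holds the ETS letters on the opposite strand, with their first base 5 bases before the start, and a further match lies 32 bases after it, outside the stretch. The Atp5c1 stretch holds the NRF1 letters 17 bases before the start. The Atp5j stretch holds the YY1 letters 88 bases and the ETS letters 61 bases before the start. No match lies in the Atp5b window. Atp5c1 and Atp5j each have another annotated start whose window holds none of the letters.

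Over windows of 250 bases before to 50 after the start, 75 member genes had 80 windows and 17 had none in the table. The NRF1 letters were in 18 of the 80 (22.5%), against 4.60% of all 32851 windows. The ETS letters were in 19 (23.8%), against 8.86% of all windows. The YY1 letters were in 7 (8.75%), against 1.40% of all. At least 1 motif was present in 38 (47.5%), against 13.6% of all, and no member window had overlapping motifs. The median log2 difference of DSS minus untreated was 0.17 over the 36 tested members with a motif and 0.15 over the 34 with a window and no motif, so members with and without the letters differed little in this median.

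The deposited intensities of each array had the same trimmed mean, 500. The median signal was nevertheless lower on the DSS arrays, at 157.1 and 163.3, than on the untreated arrays, at 193.8 and 213.9. The 18 hybridisation control probe sets averaged 14372 and 15271 on the DSS arrays and 82269 and 59067 on the untreated arrays, so differences in how the arrays were processed and the DSS treatment cannot be told apart. Values are given as signals in array units and, for differences, as log2(signal + 32), DSS minus untreated, ± the limma standard error (SE) with 2 arrays per group. This scale understates the differences of dim genes. The signal of different genes is not comparable on these arrays, and the number of arrays limits the precision. In bulk RNA, fewer cells of a type and less RNA per cell cannot be told apart.

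Of the 92 genes, 86 passed the filter, which asked for a signal above the array's own median on at least 2 of the 4 arrays. The 6 that did not were Cox6b2, Cox7a1, Cox7b2, Cox8b, Ndufa4l2 and Ndufb4. The first 4 are isoforms restricted to heart, muscle or testis, Ndufa4l2 is the hypoxia-linked relative of Ndufa4, and Ndufb4 is an ordinary complex I subunit with 1 probe set here. Cox7a1, the muscle isoform, had signals of 116 and 236 in DSS samples and 5.08 and 196 in untreated samples. Cox6b2, the testis isoform, had 7.72 and 7.99 in DSS samples and 178 and 42.3 in untreated samples.

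**Figure D1:**
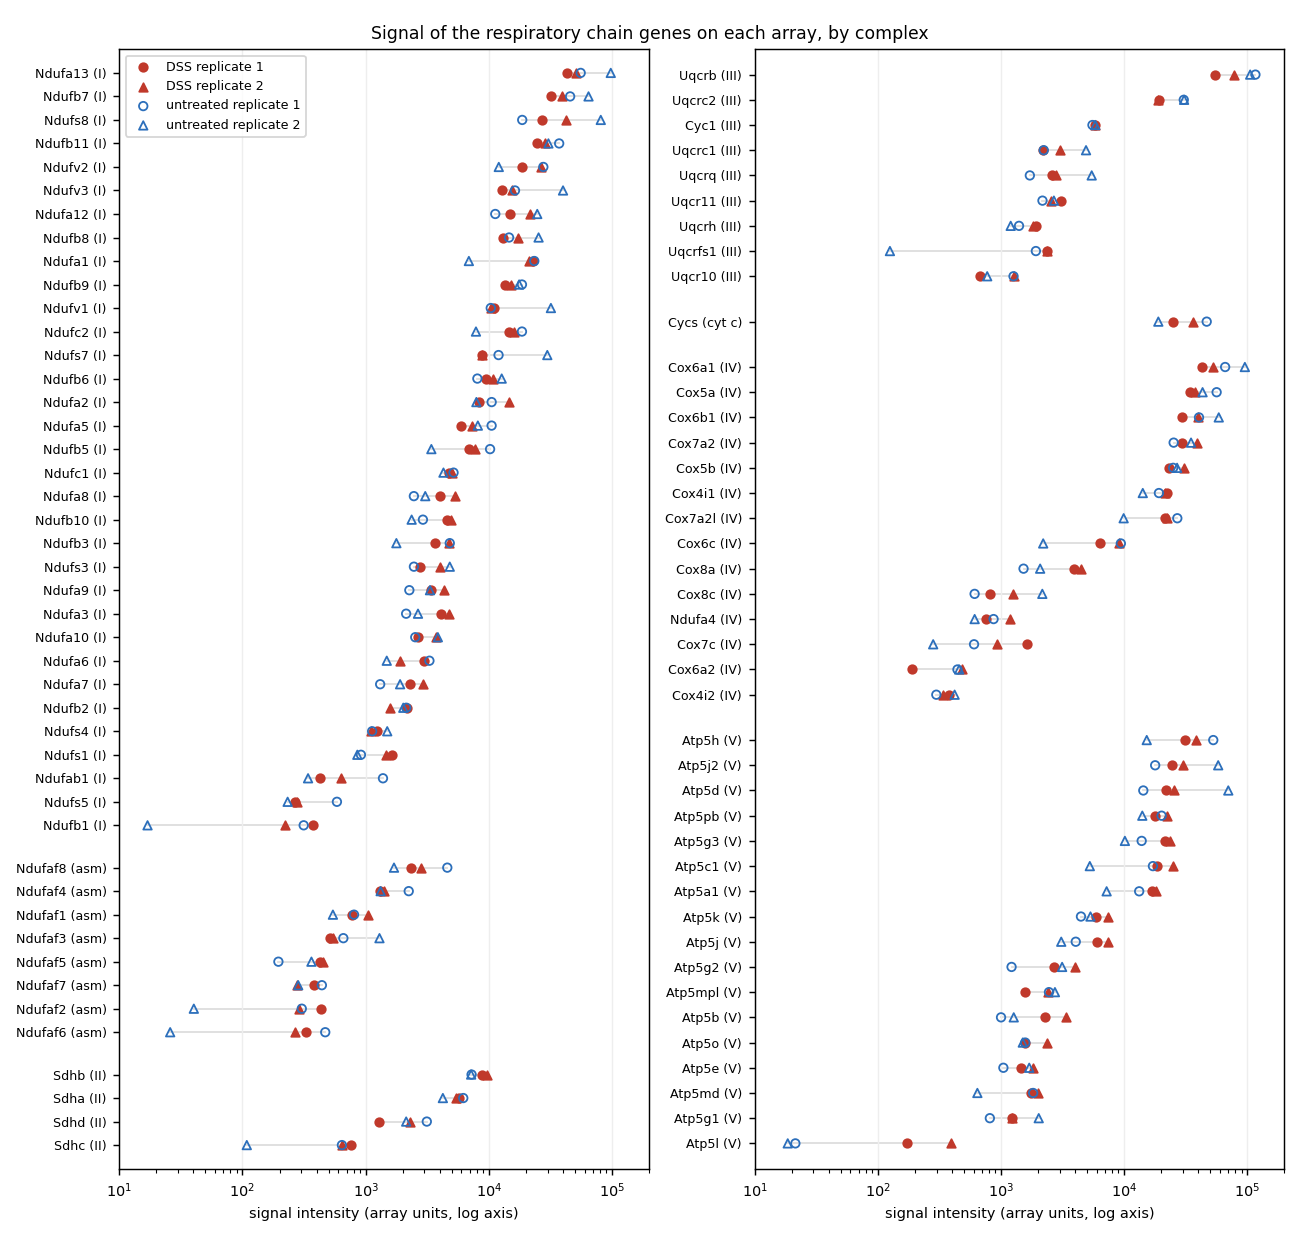
Signal of each of the 86 tested genes on each of the 4 arrays (x axis, array units on a log scale), grouped by complex, with filled red symbols for DSS samples and open blue symbols for untreated samples. The red symbols lie close together for most genes, while the blue symbols are spread more widely, down to 17 for Ndufb1 on untreated replicate 2.

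No member passed limma with Benjamini-Hochberg adjustment over the 12425 genes tested (0 of 86, background 0% of all genes), and the smallest adjusted p among members was 0.648. At an unadjusted p under 0.05, 6 members were higher in DSS samples (7% of 86, background 3.71%) and 0 were lower (background 3.81%). The signals of the groups did not overlap for 34 members: 20 were higher on both DSS arrays (23.3%, background 17.2%) and 14 were lower on both (16.3%, background 23.8%). A gap of at least 2-fold between the nearest arrays of the groups was present for 1 member that was higher, Atp5l (background 2.41%), and for 0 that were lower (background 3.02%). Atp5l passed the filter through the DSS arrays alone, both of its untreated signals being below their array's median. This route selects for higher DSS signals, so the place of Atp5l in these counts supports nothing. The other 85 members had no such one-sided route through the filter. With 2 against 2 arrays the smallest two-sided p of an exact permutation test is 0.333. The median difference over the 86 members was 0.11, beside -0.07 over all genes tested, and 52 members had a positive and 34 a negative difference. Scaling the arrays to a common median moved the median of all genes to 0.25 and that of the members to 0.46, and the non-overlapping members to 38 higher (44.2%, background 30.8% with that scaling) and 5 lower (5.81%, background 12.5%).

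ATP synthase had the highest median difference of the complexes, except where probe sets without cross-binding names were preferred (ATP synthase 0.37, complex II 0.62). Its median was 0.43 over 17 genes, 13 of which were positive. On both DSS arrays 7 were higher (41.2%, background 17.2%) and 1 was lower (5.88%, background 23.8%). These 7 include Atp5l, and the median was 0.38 when a signal above the median was asked for on all 4 arrays, which left Atp5l out. ATP synthase is a rotary enzyme with a catalytic F1 head, a ring of c subunits in the membrane, and a peripheral stalk that holds the head still. The median stayed positive under each of 12 other settings, between 0.27 and 0.78, and was 0.59 after quantile normalization, when the median of all genes was 0.01.

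On their brightest kept probe sets, the α, β and γ subunits of the F1 head had higher signals on both DSS arrays. Atp5b, the catalytic β subunit, had signals of 2292 and 3355 in DSS samples and 1002 and 1271 in untreated samples. Both DSS values lay above both untreated values, and the difference was 1.27 ± 0.41 (limma unadjusted p = 0.0169, Benjamini-Hochberg adjusted p = 0.648). Atp5c1, the γ subunit that forms the central shaft, had 18618 and 24992 in DSS samples and 17132 and 5266 in untreated samples. Its groups did not overlap, but the nearest values were close, and the difference of 1.18 ± 0.58 was 0.33 without untreated replicate 2. The other kept probe set of Atp5c1, which has no cross-binding name, had 570 and 495 in DSS samples and 547 and 298 in untreated samples. It gave 0.37 with overlapping groups. Atp5a1, the α subunit, had 16743 and 18200 in DSS samples and 13251 and 7212 in untreated samples, a difference of 0.83 ± 0.42. Its next probe set gave 1.31 and a dimmer one -0.26. Atp5d, the δ subunit, had 21872 and 25620 in DSS samples, against 14310 and 70073 in untreated samples, so the groups overlapped (-0.42 ± 0.70). Atp5e, the small ε subunit, differed by 0.29 ± 0.42, with overlapping groups.

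The c ring is built from 1 mature protein that 3 genes encode with different targeting sequences. Atp5g3 had signals of 21311 and 23415 in DSS samples and 13881 and 10146 in untreated samples, which did not overlap (0.91 ± 0.37, limma unadjusted p = 0.043, adjusted p = 0.648). Atp5g2 had 2674 and 3987 in DSS samples and 1220 and 3139 in untreated samples, and Atp5g1 had 1227 and 1234 in DSS samples and 813 and 2027 in untreated samples. Both of these genes overlapped between the groups, with differences of 0.73 ± 0.54 for Atp5g2 and -0.06 ± 0.51 for Atp5g1. Atp5g2 was 0.06 without untreated replicate 1 and 1.40 without untreated replicate 2 (limma adjusted p = 0.0157). Atp5g1 was -0.71 without untreated replicate 1, 0.58 without untreated replicate 2 and 0.27 after scaling to a common median.

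All 4 stalk genes had positive differences, with a median of 0.30. Atp5j, the coupling factor F6 of the stalk, had 6019 and 7427 in DSS samples and 4050 and 3087 in untreated samples, which did not overlap (0.91 ± 0.38, limma unadjusted p = 0.0485, adjusted p = 0.648). Atp5h, the d subunit, overlapped between the groups, with 31095 and 38048 in DSS samples and 52912 and 15262 in untreated samples (0.27 ± 0.59). Atp5o, which links the stalk to the head, differed by 0.32 ± 0.40, and Atp5pb, the b subunit, by 0.24 ± 0.38. The remaining membrane subunits were mixed. Atp5l, subunit g at the interface between ATP synthase dimers, had 174 and 394 in DSS samples and 21.5 and 18.6 in untreated samples. As it passed the filter through the DSS arrays alone, its difference of 2.51 ± 1.04 is given as a description with no test. It was read on a dim probe set, and the difference was 3.65 with a pseudocount of 1 and 1.42 with the largest pseudocount tried. Atp5k, subunit e, was higher on both DSS arrays (0.43 ± 0.37), and Atp5mpl, a small membrane subunit, was lower on both (-0.41 ± 0.40). Atp5j2, subunit f, had 24544 and 30060 in DSS samples and 17864 and 58026 in untreated samples, which overlap (-0.25 ± 0.57, and 0.10 with common median scaling or 0.03 with quantile normalization).

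Complex IV, cytochrome c oxidase, had a median difference of 0.12 over 14 tested genes. On both DSS arrays 3 were higher (21.4%, background 17.2%) and 3 lower (21.4%, background 23.8%). Its catalytic core is encoded in mitochondrial DNA, and the genes here encode the surrounding subunits. Cox8a, the ubiquitous form of the smallest of these, had signals of 3913 and 4478 in DSS samples and 1526 and 2081 in untreated samples. The groups did not overlap, and the difference was 1.22 ± 0.39 (limma unadjusted p = 0.0165, adjusted p = 0.648), but it was read on a probe set that can bind related transcripts. The other kept Cox8a probe sets gave 0.00 and 0.90 with overlapping groups. Cox7c, a small membrane subunit, had 1620 and 927 in DSS samples and 605 and 282 in untreated samples, which did not overlap (1.49 ± 0.52, limma unadjusted p = 0.0232, adjusted p = 0.648). Cox4i1, the ubiquitous form of a regulatory subunit, had 22396 and 21526 in DSS samples and 19161 and 14173 in untreated samples. It was higher on both DSS arrays by 0.41 ± 0.36, about the size of its SE, while its lung-type and hypoxia-type partner Cox4i2 overlapped (0.01 ± 0.45).

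The 3 complex IV genes that were lower on both DSS arrays were Cox6a1, Cox5a and Cox6b1. These counts depended on the scaling. With common median scaling complex IV had 7 genes higher and 1 lower on both DSS arrays (background 30.8% and 12.5%). After quantile normalization it had 5 higher and 0 lower (background 19% and 19.3%). Cox6a1, the non-muscle form of its subunit, had 42910 and 52672 in DSS samples and 66080 and 95526 in untreated samples (-0.74 ± 0.37). Its groups overlapped after quantile normalization (-0.05), and also on its second kept probe set (-0.04). Its muscle partner Cox6a2 overlapped between the groups (-0.51 ± 0.54). Cox6b1, which faces cytochrome c, had 29306 and 39803 in DSS samples and 40539 and 58646 in untreated samples (-0.51 ± 0.39). After quantile normalization Cox6b1 was -0.10 with overlapping groups, and its second kept probe set gave -0.32 with overlapping groups. Cox5a, which binds a thyroid hormone metabolite, had 34069 and 37718 in DSS samples and 56346 and 43334 in untreated samples (-0.46 ± 0.35, and 0.04 after quantile normalization). Its other kept probe sets gave 0.14 and 0.81, the last with 9155 and 7883 in DSS samples and 5100 and 4608 in untreated samples. The probe sets of this gene therefore placed the groups in opposite orders. Cox5b, Cox7a2, Cox7a2l, Cox8c and Ndufa4 all overlapped between the groups, with differences of 0.04, 0.20, 0.42, -0.19 and 0.37. Cox8c changed sign with common median scaling, to 0.15.

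Complex I, the largest complex, had a median difference of 0.02 over 33 tested genes. On both DSS arrays 6 were higher (18.2%, background 17.2%) and 7 lower (21.2%, background 23.8%). With common median scaling complex I had 9 higher and 1 lower (background 30.8% and 12.5%). After quantile normalization it had 5 higher and 5 lower (background 19% and 19.3%). Its 6 tested core subunits, most of which carry the flavin or iron-sulfur clusters, had a median of -0.12, and the 27 supernumerary subunits had 0.05. Ndufs7, which holds the last cluster before coenzyme Q, had signals of 8778 and 8858 in DSS samples and 11992 and 29832 in untreated samples. Its groups did not overlap, and at -1.10 ± 0.50 it was the lowest difference of any member (limma unadjusted p = 0.0621, adjusted p = 0.648). The second kept probe set of Ndufs7 gave -0.27 with overlapping groups. Ndufs1, the large iron-sulfur subunit, was higher on both DSS arrays, with 1628 and 1450 in DSS samples and 916 and 856 in untreated samples (0.77 ± 0.38). Ndufv1, which binds NADH, had 10976 and 10486 in DSS samples and 10369 and 31908 in untreated samples, which overlap (-0.76 ± 0.56). It was -1.57 without untreated replicate 1 (limma adjusted p = 0.00135) and 0.05 without untreated replicate 2, and its other kept probe sets gave -0.42 and 0.42. Ndufs8 overlapped as well, at -0.20 ± 0.68, and was 0.15 with common median scaling and 0.16 after quantile normalization.

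Among the supernumerary subunits, which surround the core, Ndufa3 had 4076 and 4778 in DSS samples and 2132 and 2661 in untreated samples (0.88 ± 0.38). Ndufb10 had 4602 and 4892 in DSS samples and 2918 and 2363 in untreated samples (0.85 ± 0.37). Both were higher on both DSS arrays, as were Ndufa7, Ndufa8 and Ndufa9. Ndufa13, also known as GRIM-19, was lower on both, with 43353 and 50570 in DSS samples and 55660 and 97679 in untreated samples (-0.65 ± 0.40, and 0.03 after quantile normalization). Ndufb7 was lower on both too, with 32196 and 39203 in DSS samples and 45701 and 64463 in untreated samples (-0.61 ± 0.37). Its second probe set ran the other way, with 2124 and 2519 in DSS samples and 1326 and 1865 in untreated samples (0.55). Ndufa5, Ndufb9, Ndufb11 and Ndufv3 were the other complex I genes lower on both DSS arrays, between -0.86 and -0.34, and Ndufb9 and Ndufb11 were at 0.01 with common median scaling. The second kept probe set of Ndufa5 ran the other way, with 1403 and 1541 in DSS samples and 725 and 824 in untreated samples (0.90). Ndufab1, the mitochondrial acyl carrier protein, had 424 and 634 in DSS samples and 1383 and 341 in untreated samples, so its groups overlapped (-0.40 ± 0.66). It was 0.56 without untreated replicate 1 and -1.36 without untreated replicate 2 (limma adjusted p = 0.0424), and its other kept probe set gave 1.01.

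The assembly factors had a median of 0.16 over 8 genes. On both DSS arrays 1 was higher (12.5%, background 17.2%) and 1 lower (12.5%, background 23.8%). Ndufaf3 was the lower one, with 509 and 544 in DSS samples and 659 and 1295 in untreated samples (-0.78 ± 0.46). Ndufaf2 had 435 and 289 in DSS samples and 303 and 40.3 in untreated samples, and its difference of 1.31 ± 0.83 was 0.21 without untreated replicate 2. Ndufaf5 was the higher one (0.65 ± 0.49). Ndufaf4 and Ndufaf8 overlapped, with differences of -0.34 and -0.12, the second being 0.22 with common median scaling.

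Complex II, succinate dehydrogenase, also works in the citric acid cycle, and all of its 4 subunits were tested. Its median difference was 0.24. On both DSS arrays 1 was higher (25%, background 17.2%) and 0 were lower (background 23.8%). With common median scaling 3 were higher and 0 lower (background 30.8% and 12.5%). After quantile normalization 2 were higher and 1 lower (background 19% and 19.3%). Sdhb, the iron-sulfur subunit, had signals of 8792 and 9677 in DSS samples and 7244 and 7185 in untreated samples. It was the complex II gene whose groups did not overlap, at 0.35 ± 0.36, a difference no larger than its SE. Sdha, the flavoprotein, overlapped on its brightest probe set (0.12 ± 0.39, and -0.04 after quantile normalization), and was higher on both DSS arrays on the next, with 5630 and 5965 in DSS samples and 3092 and 3171 in untreated samples (0.88). Another, dimmer kept probe set was lower on both DSS arrays, with 115 and 244 in DSS samples and 641 and 484 in untreated samples (-1.55), so the probe sets of Sdha also stood in opposite orders. Sdhc, a membrane anchor, had 762 and 638 in DSS samples and 642 and 108 in untreated samples (1.25 ± 0.73, and 0.11 without untreated replicate 2). The other kept probe set of Sdhc gave 0.04 with overlapping groups. Sdhd, the other anchor, had 1291 and 2280 in DSS samples and 3137 and 2134 in untreated samples (-0.58 ± 0.45). Its second probe set gave 845 and 1218 in DSS samples and 412 and 66.9 in untreated samples (2.32), the widest disagreement between probe sets of a member.

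Complex III, the cytochrome bc1 complex, had a median difference of -0.08 over 9 genes, and 0.25 with common median scaling. On both DSS arrays 2 were higher (22.2%, background 17.2%) and 2 lower (22.2%, background 23.8%). Uqcrb, which helps to bind coenzyme Q, had signals of 54783 and 78184 in DSS samples and 116364 and 105491 in untreated samples (-0.76 ± 0.36). After quantile normalization it was 0.40 with both DSS values above both untreated values, and its second probe set also lay higher in DSS samples, at 2110 and 1410 against 1151 and 443 in untreated samples (1.23). Uqcrc2, a core protein without a redox centre, had 19204 and 18994 in DSS samples and 30487 and 30673 in untreated samples (-0.68 ± 0.34), while its second probe set gave 0.36 with both DSS values higher. Uqcrfs1, the Rieske iron-sulfur protein, had 2379 and 2362 in DSS samples and 1922 and 126 in untreated samples. The difference of 2.11 ± 1.04 was 0.30 without untreated replicate 2. Uqcrh, the hinge protein that docks cytochrome c, was the other gene higher on both DSS arrays (0.52 ± 0.38). Cyc1 and Uqcrc1, the cytochrome c1 and the other core protein, overlapped, with 0.03 and -0.37, and Cyc1 was -0.12 after quantile normalization. Cycs, the soluble carrier cytochrome c, had 24949 and 36470 in DSS samples and 46807 and 18952 in untreated samples. Its groups overlapped (0.02 ± 0.51).

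**Figure D2:**
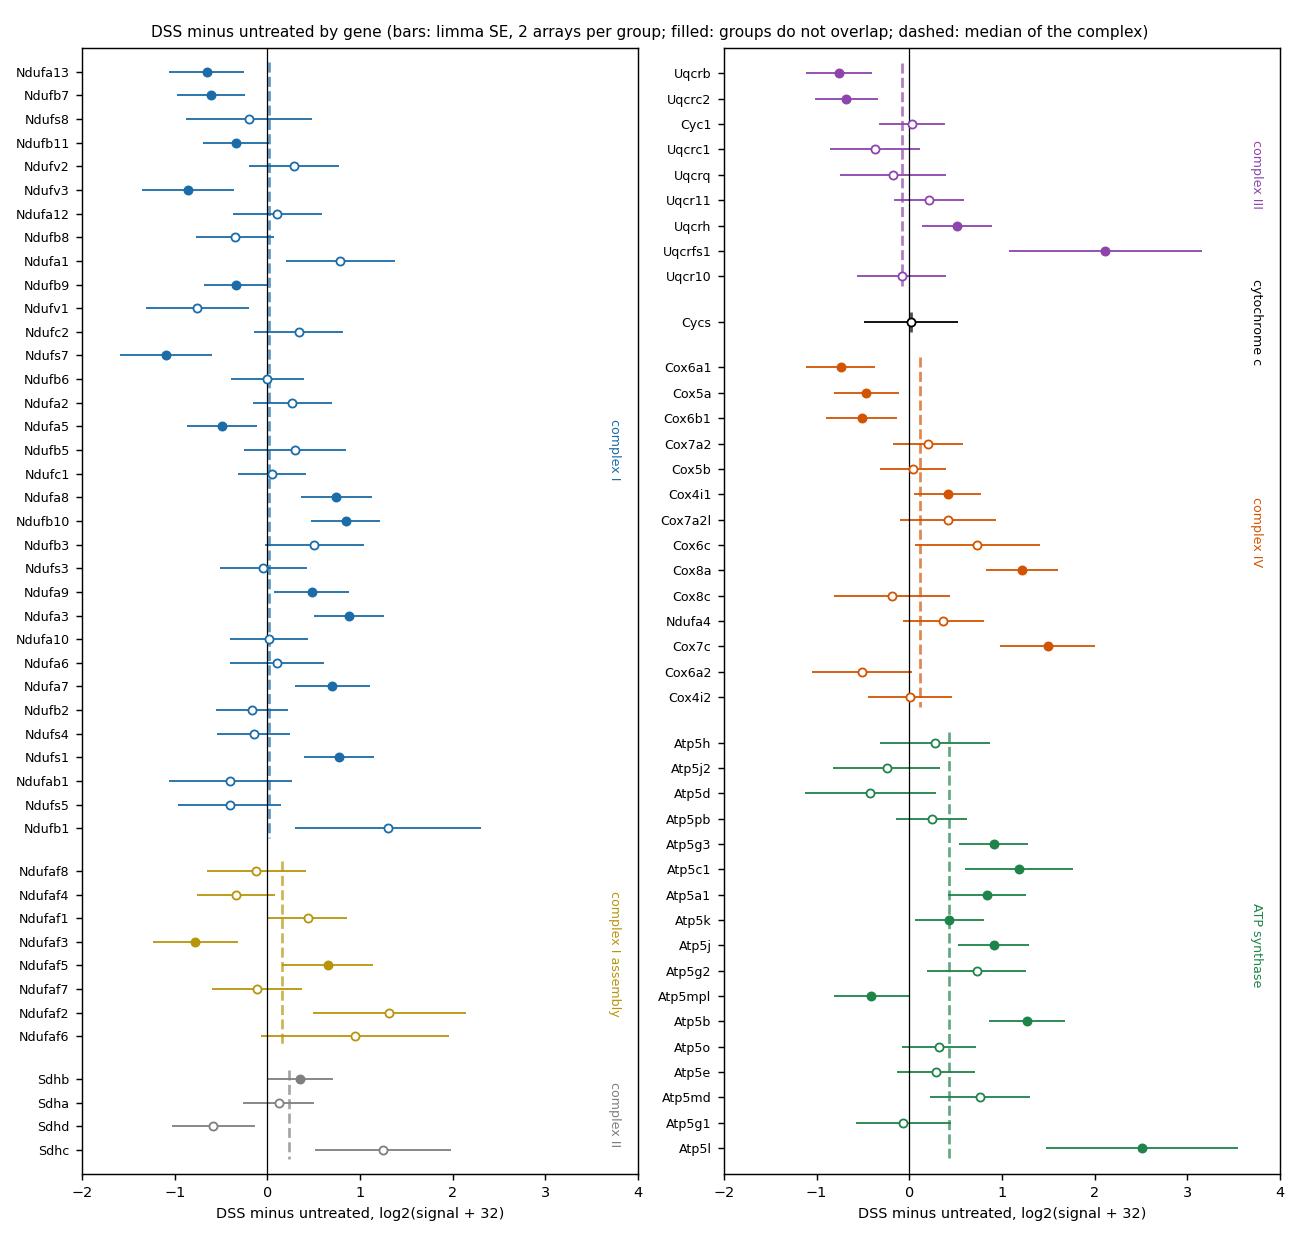
Difference of DSS minus untreated for each of the 86 tested genes on the log2(signal + 32) scale (x axis), with the limma SE as bars, filled points where the groups do not overlap and a dashed line at the median of each complex. The ATP synthase median lies at 0.43 and the complex I median at 0.02, and the bars of most genes span 0.

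The median difference of the members was negative among the brightest genes and positive in each of the 5 dimmer signal classes. Over the 86 members the correlation of mean level and difference across genes was r = -0.43 (rho = -0.35), and over all 12425 genes it was 0.13 (rho = 0.19). Genes share the 4 arrays and are not independent. In the brightest class, with a mean signal above 16352, the 23 members had a median difference of -0.25, beside -0.33 over all 268 genes of that class. There, 13 of 23 members had a negative difference, as did 72.8% of all genes. Of these 23 members, 9 were lower on both DSS arrays, as were 38.8% of all genes of the class. Higher on both was 1 of the 23, beside 7.09% of all genes of the class. Over all classes 14 members were lower on both and 20 higher. In the 5 classes below it the members' medians ran between 0.21 and 0.40, beside -0.18 to 0.20 over all genes. In the dimmest of these, below 992, the 16 members had 0.40, beside -0.18 over all genes.

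**Figure D3:**
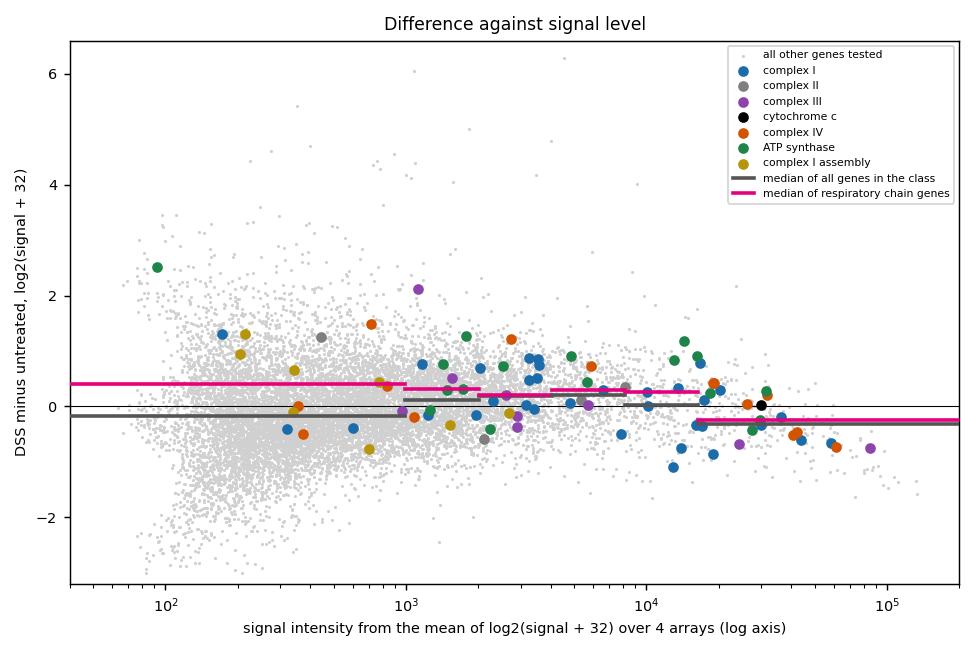
Difference of DSS minus untreated on the log2(signal + 32) scale (y axis) against signal level (x axis, log scale) for every gene tested, with members coloured by complex and horizontal lines at the medians within 6 signal classes. The member and all-gene medians both fall below 0 in the class above 16352, at -0.25 and -0.33.

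Probe sets of the same gene did not always agree. Of 48 members with at least 2 kept probe sets, 26 had 1 sign on all of them, 19 positive and 7 negative, and 22 had both signs. The brightest probe set gave the lower difference of the first pair in 36 of 48 genes (75%), against 48.8% of 4900 genes over the whole table. Its median difference was -0.04, beside 0.32 for the next probe set. Where the brightest lay above 16352 it was the lower of the pair in 17 of 19 members (89.5%) and in 172 of 213 of all genes (80.8%). Over all 160 kept member probe sets the median difference was 0.24, with 46 higher (28.8%, background 17.5% of 20233 kept probe sets) and 20 lower (12.5%, background 23.1%) on both DSS arrays. Of the 86 genes, 24 were read on a probe set whose name marks possible binding to related transcripts, among them Cox8a, Cox7c, Atp5a1, Atp5c1, Ndufa13, Ndufa3, Sdha and Sdhd, and their values are uncertain.

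**Figure D4:**
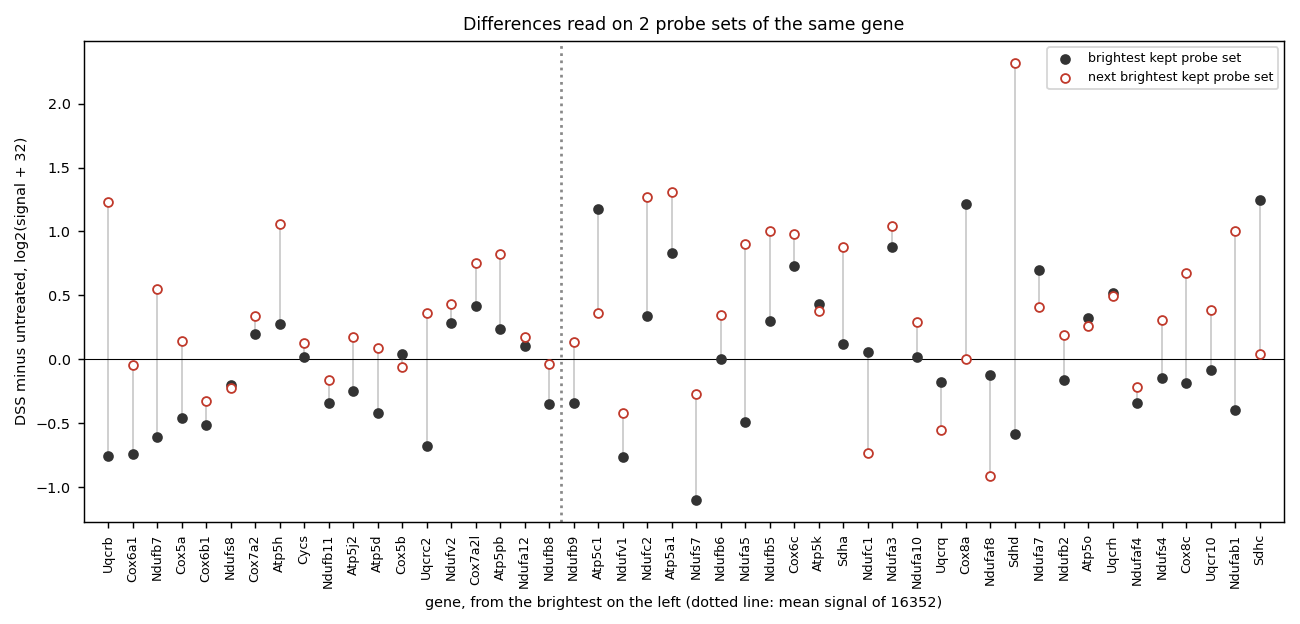
Difference of DSS minus untreated on the log2(signal + 32) scale (y axis) on the brightest (filled) and the next brightest (open) kept probe set of 48 genes, ordered from the brightest on the left. The open point lies above the filled one in 36 of the 48 genes, and for Uqcrb the filled point stands at -0.76 and the open one at 1.23.

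The DSS arrays repeated each other more closely than the untreated arrays did. The median absolute log2 gap between replicates over the members was 0.29 in DSS samples and 0.63 in untreated samples, beside 0.36 and 0.68 over all genes. A gap over 1 was seen for 2 of 86 members in DSS samples (2.33%; all genes 13.4%) and for 33 in untreated samples (38.4%; all genes 34.5%). Across members the replicates correlated at r = 0.987 in DSS samples and 0.899 in untreated samples, and over all genes at 0.92 and 0.794. Between the DSS arrays, replicate 2 was the higher for 67 of 86 members (77.9%), against 50.8% of all genes, and for all 17 ATP synthase genes. The untreated replicates parted in both directions. Uqcrfs1, Ndufb1, Sdhc, Ndufaf2 and Ndufaf6 were far lower on replicate 2, as with Ndufb1 at 314 on replicate 1 and 17 on replicate 2, while Atp5d and Ndufs8 were several times higher there.

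**Figure D5:**
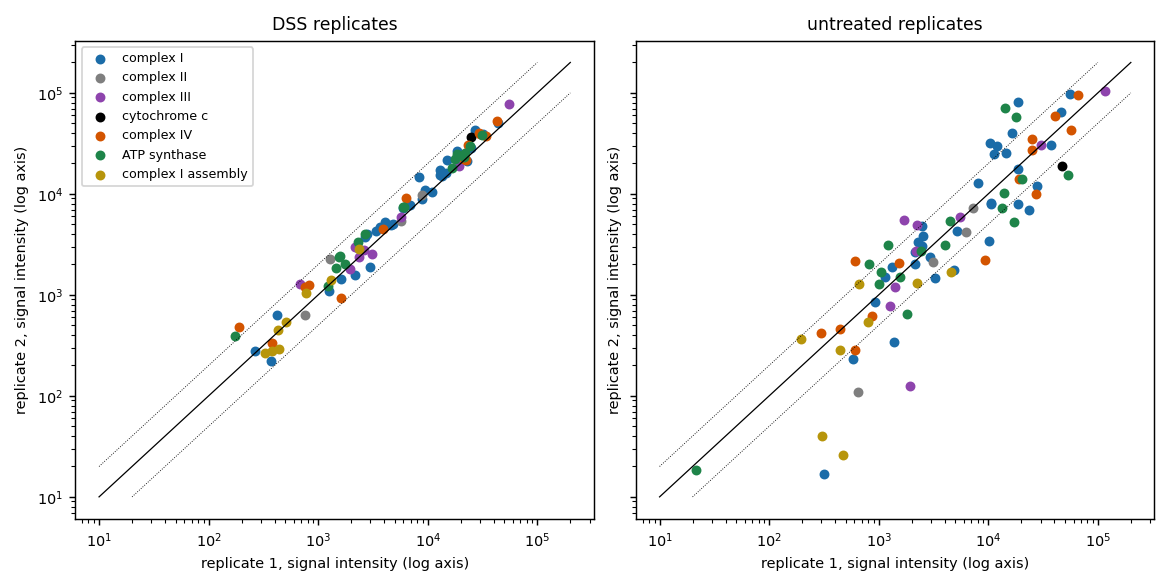
Signal of the 86 members on replicate 2 (y axis) against replicate 1 (x axis), both on log scales in array units, for the DSS arrays (left) and the untreated arrays (right), with dotted lines at a 2-fold gap. On the left 2 genes show a log2(signal + 32) gap over 1, on the right 33 do.

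The calls depended on which untreated array was used. Without untreated replicate 1, when the lone untreated sample is assumed to vary as the DSS samples do, 30 members passed limma with Benjamini-Hochberg adjustment. Of these, 19 were higher (background 9.08% of all genes) and 11 were lower (background 5.29%). Without untreated replicate 2, 5 members passed, 4 higher (background 4.41%) and 1 lower (background 1.64%). Atp5b was 1.11 without untreated replicate 1 and 1.44 without untreated replicate 2, and Cox8a was 1.00 and 1.44. Other members had opposite signs in the 2 fits, among them Ndufa1, Ndufb3, Ndufb5, Ndufc2, Ndufs8, Ndufv1, Ndufab1, Uqcrq, Cox6c, Cox7a2l, Cox8c, Atp5d, Atp5h and Atp5j2. How often the sign turned over all genes was not counted. Ndufs8 was -1.26 without untreated replicate 1 and 0.86 without replicate 2, Atp5d was -1.56 and 0.72, and Atp5h was 1.17 and -0.62. Uqcrfs1 was 3.93 ± 0.36 without untreated replicate 1 (limma adjusted p = 7.15e-07) and Ndufs7 was -1.75 ± 0.29 (limma adjusted p = 0.000526), and without untreated replicate 2 they were 0.30 and -0.44 and did not pass. Leaving out either DSS array left 0 members called by limma, with 0 (without replicate 1) and 1 (without replicate 2) at an unadjusted p under 0.05.

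Other genes of mitochondrial energy metabolism gave 0 calls by limma with Benjamini-Hochberg adjustment in each list, and at an unadjusted p under 0.05 the lists held 8 higher and 4 lower of 179 genes (background 3.71% and 3.81%). The counts of genes higher and lower on both DSS arrays in these lists stand beside a background of 17.2% higher and 23.8% lower. Of 31 tested assembly factors beyond the Ndufaf genes, 6 were higher and 4 lower on both DSS arrays (median 0.08). Atpaf2, among the higher, passed the filter through the DSS arrays alone. Sco2, among the lower, passed through the untreated arrays alone. The places of Atpaf2 and Sco2 in these counts therefore support nothing. Coa5, a complex IV assembly factor, differed by 1.54 ± 0.41 and Nubpl, which supplies iron-sulfur clusters to complex I, by 1.72 ± 0.60, while Timmdc1, another complex I assembly factor, was lower on both DSS arrays (-1.24 ± 0.44). Of 13 genes that feed electrons into or make coenzyme Q, 6 were higher and 2 lower (median 0.29), with Etfa, an electron-transfer flavoprotein, at 1.83 ± 0.84 and the coenzyme Q enzyme Coq7 at 0.91 ± 0.45. Of 20 citric acid cycle and pyruvate dehydrogenase genes, 6 were higher and 3 lower (median 0.39). Pdk2, a kinase that inhibits pyruvate dehydrogenase, had signals of 85.6 and 120 in DSS samples and 324 and 415 in untreated samples (-1.58 ± 0.60). It passed the filter through the untreated arrays alone, so it had to differ, and it is 1 of the 4 lower genes above. The cycle enzyme Idh3a differed by -0.75 ± 0.37.

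The list of adenine nucleotide and phosphate carriers, outer membrane channels, uncoupling proteins and the ATPase inhibitor had a median of 0.65 over 8 genes. On both DSS arrays 5 of these were higher and 1 was lower, the inhibitor Atpif1 (-0.30). Vdac2, an outer membrane channel, had 4897 and 7014 in DSS samples and 2636 and 1834 in untreated samples (1.40 ± 0.41). Slc25a5, which exchanges ADP for ATP, had 16785 and 24075 in DSS samples and 10746 and 9467 in untreated samples (0.99 ± 0.38). Of 16 regulators of mitochondrial biogenesis, 5 were higher and 1 lower (median 0.02). Gabpa, the DNA-binding part of GABP, had 1122 and 930 in DSS samples and 409 and 592 in untreated samples (1.01 ± 0.41), and the coactivator Ppargc1b differed by 0.91 ± 0.40. Of 76 mitochondrial ribosome genes, 20 were higher and 12 lower (median 0.16), and the smallest p values were those of Mrpl41 (-1.28 ± 0.41) and Mrps5 (-1.14 ± 0.45). Of 14 glycolysis genes, 6 were higher and 1 lower (median 0.11), with Hk2, an inducible hexokinase, at 1.82 ± 0.51 and Pgk1 at -0.68 ± 0.37. The 1 mitochondrially encoded subunit with a named probe set, ND5 of complex I, had 25404 and 24215 in DSS samples and 36184 and 44554 in untreated samples (-0.69 ± 0.35).

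Lymphocyte markers were present on every array, and those of macrophages moved with DSS. Of 15 markers listed for gamma delta intraepithelial lymphocytes, 11 had a probe set with a single symbol. The receptor genes Tcrg-C1, Tcrd, Trdc and Trgc1 had none, so the gamma delta receptor itself was not read. The 11 tested markers summed to 354386 and 369687 in DSS samples and 721596 and 564273 in untreated samples, with 2 higher and 5 lower on both DSS arrays. For this and the other marker lists the background was 17.2% higher and 23.8% lower. The chemokine Ccl5 (-1.48 ± 0.34) and the integrin Itgae (-1.20 ± 0.33) had the smallest p of this list and were lower on both DSS arrays, as were Gzmb, Cd8a and Klrd1. Of the CD3 chains, Cd3d (0.67) and Cd3g (0.36) were higher on both and Cd3e overlapped (-0.17). All 11 tested macrophage markers were higher on both DSS arrays, of which C1qc and Mrc1 passed the filter through the DSS arrays alone, and their signals summed to 63413 and 89123 in DSS samples and 9709 and 3277 in untreated samples. No macrophage marker was at 0, and the lowest signal among them was 10.9. Epithelial markers summed to 16225 and 13229 in DSS samples and 13068 and 9606 in untreated samples, and neutrophil markers to 1090 and 2363 in DSS samples and 1681 and 1338 in untreated samples. B cell markers summed to 1144 and 2013 in DSS samples and 1094 and 2183 in untreated samples, and muscle and heart markers to 554 and 1700 in DSS samples and 1604 and 1571 in untreated samples. Many of these were dim. Of 8 neutrophil markers, 5 and 3 were at or below the array's median on the DSS arrays, and 3 and 6 on the untreated arrays. Of 7 muscle and heart markers, 6 and 3 were so on the DSS arrays, and 5 and 4 on the untreated arrays. All cell types use the respiratory chain, and the part of these other cells in the members' values was not tested.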

How the data were processed

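The deposited values are linear signal intensities, 1 per probe set and array for 45101 probe sets, and the submitters' processing notes name GCOS as the authors' tool, with no version or algorithm. Probe sets were named from the platform annotation: 34958 had 1 symbol, 932 several and 9211 none. All 184 member probe sets matched the RefSeq gene table by gene number, and 10 probe sets that carry a member's symbol beside others were not used.

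The scale was log2(signal + 32), and arrays were not normalized again. Probe sets above their own array's median on at least 2 of 4 arrays were kept. Each gene was read on the kept one of highest mean log2 value. DSS and untreated samples were compared over 12425 genes in R 4.3.3 with limma 3.58.1 (lmFit, then eBayes with a trend in level). Group was the only term, and p-values were adjusted by Benjamini-Hochberg at a threshold of 0.05. This step was tested on simulated data. Promoter windows came from RefSeq.

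Members and gene lists were chosen with earlier results of these data known. Members were named as the brightest and the smallest in p of each complex, core subunits, isoforms, and any with a 2-fold gap between groups. Atpaf2 and Sco2 were named for passing the filter through 1 group alone. Atp5e, Atp5j, Atp5k, Atp5mpl, Atp5o, Atp5pb, Ndufa5, Ndufa7, Ndufa8, Ndufa9, Ndufaf5, Ndufaf6, Ndufb1, Ndufb9, Ndufb11, Ndufv3, Uqcrh, Atpif1, Timmdc1, the members named for opposite signs, and lymphocyte and macrophage markers other than Ccl5 and Itgae, and the parts of complex I and ATP synthase, were chosen after their values were seen. Alternatives changed the pseudocount, the scaling of arrays, the filter, how probe sets were chosen, the variance model or the threshold, added a replicate block, or left out an array.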

Additional observations from a re-analysis of the deposited data

How the results depend on the processing

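No member was called under scaling, pseudocount, filter, probe set, variance model or threshold alternatives, and leaving out single arrays gave 0 to 30 calls. The median over members was 0.46 with common median scaling, 0.26 with the mean of a gene's probe sets, and 0.043 to 0.32 without single arrays. Members higher on every DSS array numbered 38 of 86 with common median scaling (all genes 30.8%). They numbered 33 without DSS replicate 1 (all genes 25.7%) and 25 without DSS replicate 2 (25.5%). Without untreated replicate 1 they numbered 45 (all genes 35.4%), and without untreated replicate 2, 37 (36.9%). Those lower numbered 5 with common median scaling (all genes 12.5%) and 7 with the mean of probe sets (all genes 23.4%). They numbered 17 without DSS replicate 1 (all genes 34.3%) and 21 without DSS replicate 2 (34.4%). Without untreated replicate 1 they numbered 29 (all genes 47.7%), and without untreated replicate 2, 33 (42.1%). Fewer values have to separate when an array is left out. The causes of the other shifts were not tested. With the replicate block 0 members were called, against 67 of all genes, and the smallest member adjusted p was 0.148. Across the genes tested, the deviations of DSS replicate 1 and untreated replicate 1 from their group means correlated at 0.0521. The labels name no pairing, and same-numbered samples were not taken as pairs. Of 46 named members, 23 kept their sign under 12 settings, 17 of them higher in DSS samples. Cox8a was 0.00 and 0.90 on its kept probe sets without a cross-binding name. The number of arrays and the dim signals of genes such as Atp5l limit the precision.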
